A study of Homo sapiens with 4 samples.

Results

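Windows of 100 kb in which newly accessible sites lay close together were compared between 2 human prostate cancer lines by ATAC-seq. In this assay a transposase, Tn5, inserts sequencing adapters into DNA that nucleosomes leave free. C4-2B is a prostate adenocarcinoma line. C4-2BER, labelled C4-2B_Enza_Resist, arose from it under prolonged enzalutamide, an inhibitor of androgen signalling, and is described by the study as neuroendocrine-like. It is 1 selected line that was kept in the drug, so the effects of the drug and of the selection cannot be told apart. Each line had 2 libraries, which the authors merged before peak calling. There was therefore 1 peak list per line and no replicate check, and every difference below describes these 2 lists without a test.

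The windows were chosen by measured values. Chromosomes 1 to 22 were tiled in hg38, a peak that overlapped no peak of the other line was called C4-2BER-only or C4-2B-only, and a window was kept when its C4-2BER-only peaks outnumbered its C4-2B-only peaks by 4 or more. This held for 209 of 28760 windows, or 0.727%. In 3068 windows the difference ran the other way by at least the same number, and these are called windows of clustered loss. Of the 209 windows, 134 stood exactly at a difference of 4 and the highest difference was 9. Just outside the rule, 372 windows had a difference of 3. The C4-2BER-only peaks had a median of 15 reads at the summit in the windows at 4 and of 14 reads in those at 3, so the windows on either side of the limit held peaks of much the same height.

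The 2 lists differed in depth and length. The reads at each summit and its local background were recovered from the deposited fold and p-value, and C4-2B was 1.20 times deeper. It had 149676 peaks, of which 56491 were C4-2B-only, against 118728 peaks in C4-2BER, of which 24651 were C4-2BER-only. Promoter peaks of all 7 luminal and all 6 neuroendocrine marker genes checked were in both lists. The lists were made from whole cultures, so more cells with an open site and a site more open in each cell cannot be told apart.

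Accessible sites are mostly promoters and enhancers, where transcription factors bind and displace nucleosomes. Enhancers of genes that set cell identity often lie in groups over many kilobases, and HOX genes, which give cells their position along the body axis, sit side by side and can share a stretch of open or Polycomb-repressed chromatin. Several new peaks in the same window can therefore be the elements of the same gene or of a gene cluster.

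The 200 bases around the summit of the strongest C4-2BER-only peak are shown for 5 of the first windows, because these peaks lead the clusters described next. All are plus-strand hg38 sequence. Capitals mark consensus matches of the 14 motifs searched on both strands, and a sequence without capitals held none of them. They are a CAGGTG E-box near TIAM1 (chr21:31580857-31581056), a HOX-PBX match (TGATTNAT) beside PAX8 (chr2:113283132-113283331), none in the HOXD cluster (chr2:176175011-176175210), none in DACH1 (chr13:71713079-71713278) and an AP-1 match (TGANTCA) at the LYPD5 promoter (chr19:43798674-43798873).
TIAM1: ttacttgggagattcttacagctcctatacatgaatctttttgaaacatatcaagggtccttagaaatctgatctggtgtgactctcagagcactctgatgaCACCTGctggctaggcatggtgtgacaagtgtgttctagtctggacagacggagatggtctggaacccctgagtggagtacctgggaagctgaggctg
PAX8: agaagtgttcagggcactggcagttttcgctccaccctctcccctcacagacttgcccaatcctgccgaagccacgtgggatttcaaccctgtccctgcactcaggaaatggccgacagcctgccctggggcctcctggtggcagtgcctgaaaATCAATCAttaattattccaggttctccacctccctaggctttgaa
HOXD: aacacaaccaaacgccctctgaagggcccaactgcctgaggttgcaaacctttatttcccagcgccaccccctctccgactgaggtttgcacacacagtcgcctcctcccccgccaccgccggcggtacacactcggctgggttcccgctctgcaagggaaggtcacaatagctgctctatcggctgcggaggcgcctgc
DACH1: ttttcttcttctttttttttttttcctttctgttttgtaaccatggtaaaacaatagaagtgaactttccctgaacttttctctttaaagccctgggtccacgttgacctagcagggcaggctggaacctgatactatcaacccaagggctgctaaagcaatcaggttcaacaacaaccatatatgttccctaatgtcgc
LYPD5: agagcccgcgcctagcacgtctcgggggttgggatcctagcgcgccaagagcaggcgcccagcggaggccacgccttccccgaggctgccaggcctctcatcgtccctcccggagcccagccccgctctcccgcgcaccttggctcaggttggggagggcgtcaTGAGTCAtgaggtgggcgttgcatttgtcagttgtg
The LYPD5 stretch was 68.5% G and C with 17 CG dinucleotides. The DACH1 stretch was 40.5% with 2, so the leading peaks ranged from promoter-like to A+T-rich sequence.

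Windows were ordered by their difference. The first was chr21:31500001-31600000, which holds the start of TIAM1, an activator of the small GTPase RAC. It had 9 C4-2BER-only peaks and 0 C4-2B-only peaks. Along the chromosome their summits held 27, 15, 15, 24, 11, 14, 13, 26 and 13 reads, and 7 lay in introns of TIAM1. The C4-2B list had 2 peaks in the window and both were shared. The peak with the highest −log10 q, 17.0, lay outside coding genes with a fold of 8.28 over its background. The new peaks spanned 88760 bp, so they were spread over most of the window.

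The HOXB window, chr17:48500001-48600000, had 10 C4-2BER-only and 2 C4-2B-only peaks and overlaps HOXB1 to HOXB6. It had 6 C4-2BER-only peaks in promoters, within 2000 bp of a transcription start site (TSS). The strongest lay at HOXB4, with 36 reads and a −log10 q of 12.4, and a neighbour 31 reads high lay just upstream of it. HOXB4 had a promoter peak in C4-2BER and none in C4-2B. HOXB2, HOXB3, HOXB5 and HOXB6 had promoter peaks in both lines, and HOXB1 in neither. The 6 shared peaks of the window had a median depth-scaled read ratio of C4-2BER over C4-2B of 0.901, with a local background ratio of 1.71. New peaks were thus listed beside promoters that had peaks in both lines.

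The HOXD window, chr2:176100001-176200000, had 9 C4-2BER-only and 2 C4-2B-only peaks and overlaps HOXD1, HOXD3, HOXD4 and HOXD8 to HOXD12. Its new summits held 16, 29, 22, 35, 18, 22, 22, 13 and 48 reads. HOXD9 and HOXD3 had a promoter peak in C4-2BER only, with a −log10 q of 11.5 and 10.2. HOXD1, HOXD8, HOXD11 and HOXD12 had promoter peaks in both lines, HOXD4 and HOXD10 in neither. The strongest peak, 48 reads high with a −log10 q of 25.7, lay outside coding genes. Together, 14 of the 39 HOX cluster genes overlapped a window of clustered gain, all of them in these 2 windows.

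PAX8, a transcription factor of thyroid and kidney development, shared the window chr2:113200001-113300000 with PSD4, which activates small GTPases of the ARF family. There were 9 C4-2BER-only and 2 C4-2B-only peaks. Both strongest new peaks were high for line-only peaks. The peak at chr2:113282897-113283420, outside coding genes, held 62 reads with a fold of 12.7 and a −log10 q of 48.3. The peak at chr2:113235323-113235840, in a promoter, held 71 reads with a −log10 q of 45.8. That peak lies within PAX8, which had promoter peaks in both lines.

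DACH1, a transcriptional repressor of eye and limb development, overlapped 3 windows in a row. The middle window, chr13:71700001-71800000, had 7 C4-2BER-only peaks, all in introns, and the C4-2B list had 0 peaks in it. Their summits held 12, 37, 23, 12, 26, 16 and 21 reads, and the strongest had a −log10 q of 30.1. The next window, chr13:71800001-71900000, had 7 C4-2BER-only and 2 C4-2B-only peaks, and its only shared peak was 10.4 times as high in C4-2BER by depth-scaled reads, with a local background 5.85 times as high. DACH1 thus combined many new peaks with nearly no peaks in C4-2B.

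Among the other first 12 windows, ZNF608 (chr5:124700001-124800000) had 8 C4-2BER-only and 1 C4-2B-only peaks, of which the strongest held 47 reads with a −log10 q of 29.1. CREB5, a CREB-family transcription factor, had 7 and 0 (chr7:28700001-28800000), all in introns, and 3 of these peaks lay within 1000 bp of each other and held 10, 9 and 8 reads. The window of PRSS16 and POM121L2 (chr6:27200001-27300000) had 8 and 0 beside 12 shared peaks, with up to 65 reads. Gene-dense windows also entered. The chromosome 19 window with BCAT2, HSD17B14, PLEKHA4, PPP1R15A and TULP2 (chr19:48800001-48900000) had 10 and 3, and all 3 of its C4-2B-only peaks had a −log10 q above 10, so peaks were exchanged there as well as added. The window of SEC14L4, SEC14L6, GAL3ST1 and PES1 (chr22:30500001-30600000) had 8 and 2.

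The window chr19:43700001-43800000 held the highest −log10 q among the new peaks of the first 12 windows, 89.4, with 104 reads at the LYPD5 promoter. LYPD5 was not among the 38 genes with a promoter peak in C4-2BER only, so C4-2B had a LYPD5 promoter peak as well. The window had 8 C4-2BER-only and 2 C4-2B-only peaks. KCNN4, a calcium-activated potassium channel, lies in the same window and had a promoter peak in C4-2B only, a low one with 10 reads and a −log10 q of 2.47. The remaining window, chr22:22100001-22200000, overlaps no protein-coding gene. The annotation places the immunoglobulin lambda variable genes IGLV4-60 and IGLV6-57 there, and VPREB1 was the nearest coding gene at 44779 bp. It had 8 C4-2BER-only and 2 C4-2B-only peaks, with summits of 12 to 31 reads.

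**Figure D1:**
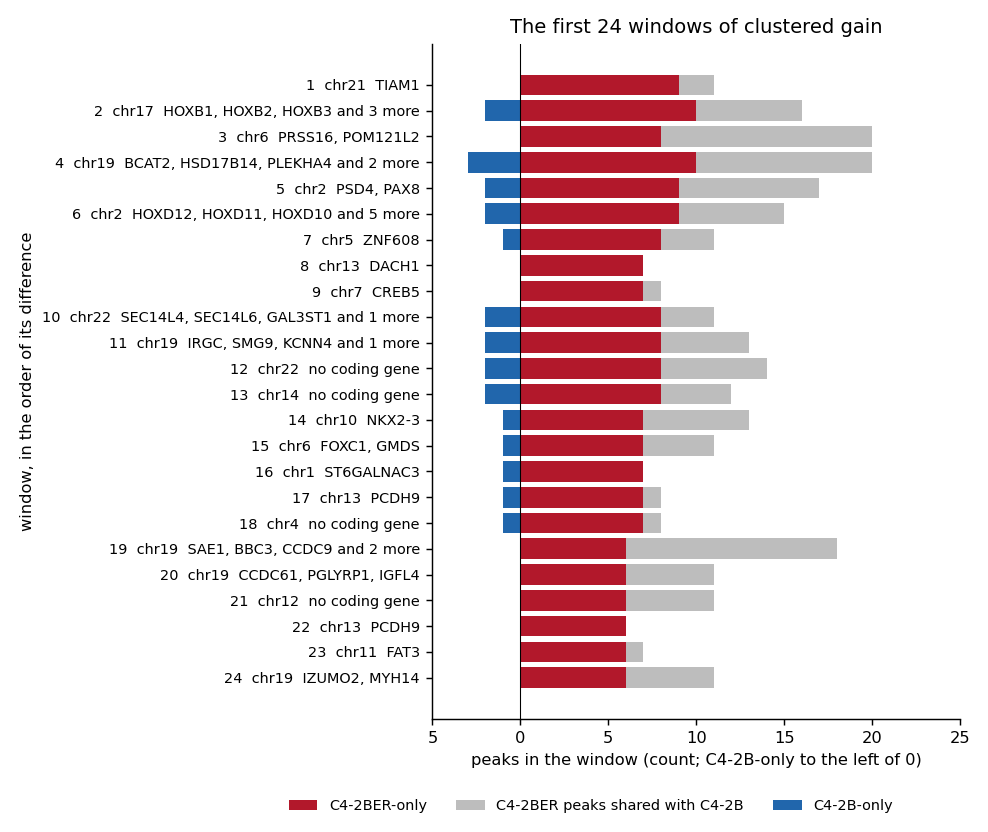
Peaks in the first 24 windows of clustered gain, in the order of their difference: the bars to the right show C4-2BER-only peaks (red) and C4-2BER peaks shared with C4-2B (grey), and the bars to the left C4-2B-only peaks (blue), as counts. The DACH1 window has 7 new peaks and no others, while the PRSS16 window has 8 new beside 12 shared peaks.

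Of 1943 C4-2BER peaks in the 209 windows, 1092 were C4-2BER-only and 851 were shared. Of 981 C4-2B peaks there, 135 were C4-2B-only. A window had 9 C4-2BER peaks and 4 C4-2B peaks at the median. There were 118 windows with 0 C4-2B-only peaks, 60 with 1 and 31 with more. In 24 windows the C4-2B list had no peak of any kind. These numbers follow largely from the rule, and the plot of windows by their counts shows where it cuts. The 1092 peaks were 4.60% of all autosomal C4-2BER-only peaks, so most new peaks lay outside such clusters.

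**Figure D2:**
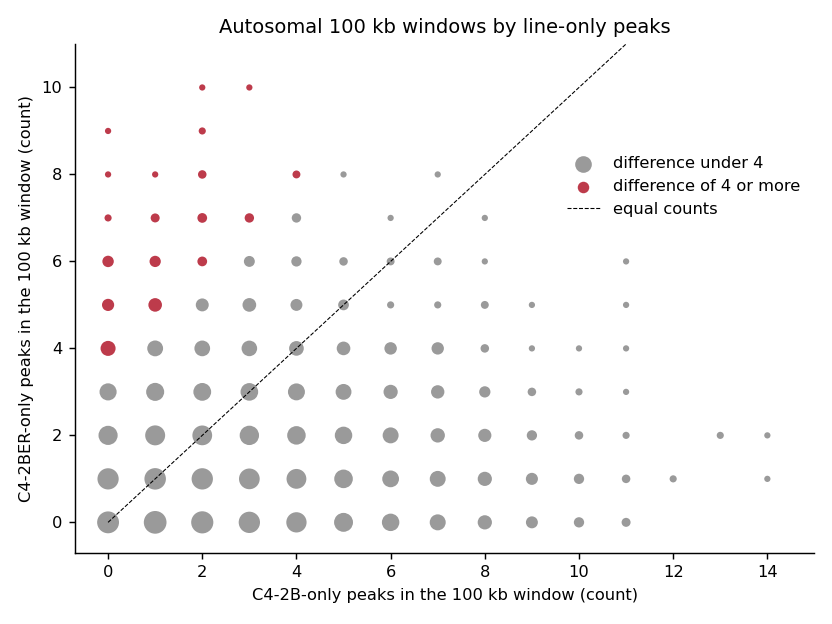
Autosomal 100 kb windows with a peak, placed by their number of C4-2B-only (x) and C4-2BER-only (y) peaks; the area of a point grows with the number of windows at that place, red points have a difference of 4 or more and the dashed line marks equal counts. The red points reach 10 C4-2BER-only peaks, and most windows lie below the dashed line.

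The new peaks were mostly low. Those in the windows had a median of 16 reads at the summit (quartiles 12 and 23) and a fold of 4.53, against 14 reads (11 and 20) and 4.30 for the 22663 C4-2BER-only peaks elsewhere. Strong peaks, with a −log10 q of 10 or more, made up 24.4% of them and 18.5% of those elsewhere, and 148 of the 209 windows held at least 1 of them. The new peaks of a window spanned 66553 bp at the median (quartiles 48069 and 79048), but covered only 1593 bp. The nearest C4-2B peak was 7480.5 bp away at the median and 5030 bp for the new peaks elsewhere. The rule favours windows with few C4-2B-only peaks, which bears on this distance.

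Promoters took 15.1% of the new peaks in the windows (Wilson 95% interval 13.1 to 17.4, counting error only) and 12.3% of those elsewhere (11.8 to 12.7). Introns took 36.8% and 38.1%, and sites outside coding genes 45.5% and 47.0%. Among the 135 C4-2B-only peaks of the windows the promoter share was 15.6%, against 6.60% of C4-2B-only peaks elsewhere. Line-only peaks of both kinds thus lay somewhat more often at promoters in these windows than elsewhere. Of the windows, 7.66% overlapped 5 or more coding genes, against 3.49% of windows of clustered loss and 3.12% of all windows with a peak. No coding gene was overlapped by 25.4%, against 21.3% and 32.6%, so windows of clustered loss had the lowest share without genes. Of the 53 windows with no coding gene, 35 overlapped a long noncoding RNA gene and 2 overlapped antigen receptor genes, the second being the T cell receptor alpha variable genes at chr14:22100001-22200000. In 30 of them the nearest coding gene lay more than 100 kb away.

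The windows overlapped 327 of 18773 autosomal protein-coding genes, or 1.74%. Of these, 256 had a promoter peak in both lines, 38 in C4-2BER only, 3 in C4-2B only and 30 in neither. Over all genes, 3.31% had a promoter peak in C4-2BER only. The rule used the same peaks, so the share of 11.6% here is a description. A promoter peak in both lines was found for 78.3% of the genes in the windows and for 78.7% of all genes.

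For 37 of these 38 genes the strongest promoter peak was itself C4-2BER-only. This follows largely from the definition of the 38 genes, since C4-2B had no promoter peak at them. NKX2-3, a homeobox factor of gut and spleen, had a C4-2BER-only promoter peak with 85 reads and a −log10 q of 60.2. Its window had 7 C4-2BER-only peaks and 1 C4-2B-only peak (chr10:99500001-99600000). CGB2 had 79 reads and 61.6, but it belongs to the near-identical chorionic gonadotropin beta genes, whose reads can be split or lost at the mapping quality filter, and its value is uncertain. PYY, which encodes a gut hormone, was the exception. It reaches into 2 adjoining windows (chr17:43900001-44100000), and its strongest promoter peak, with 134 reads, overlapped a C4-2B peak that lay beyond the promoter limit. Its C4-2BER-only peak had 73 reads and a −log10 q of 27.8 (chr17:44005855-44006156), and it lies upstream of PYY and near the start of the neighbouring gene NAGS, so it cannot be assigned to either. HGF, the hepatocyte growth factor, had 19.7 and 36 reads, and EDNRB, an endothelin receptor, 16.0 and 28 reads. In the EDNRB window (chr13:77900001-78000000) all 4 C4-2BER-only peaks lay in promoters and the C4-2B list had no peak.

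CDX2, an intestinal homeobox factor, had a promoter peak in C4-2BER only, with 41 reads and a −log10 q of 9.16. Its window (chr13:27900001-28000000), shared with PDX1, a pancreatic factor, had 5 C4-2BER-only and 1 C4-2B-only peaks. The 13 shared C4-2BER peaks there had a median read ratio of 0.655, lower in C4-2BER, and a background ratio of 0.721. CDX2 and PDX1 belong to the list of 17 gut and liver lineage factors. Of the 30 neural adhesion and matrix genes, NCAM1, NLGN1 and ASTN1 were in windows. NCAM1, the neural cell adhesion molecule, had 6 C4-2BER-only and 0 C4-2B-only peaks in chr11:113100001-113200000, with 11 to 20 reads, and its promoter peak was in both lines. NLGN1, a synaptic adhesion protein, had 5 and 1, with a peak of 41 reads and a −log10 q of 29.2 in a promoter. NLGN1 had promoter peaks in both lines. ASTN1, which acts in neuronal migration, had 4 and 0 and a promoter peak in C4-2BER only, with 19 reads.

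Of 31 neuroendocrine lineage transcription factors only NKX2-1, a lung and thyroid factor, overlapped a window. That window had 5 C4-2BER-only and 0 C4-2B-only peaks, 3 of them in promoters, with 12 to 33 reads. NKX2-1 had promoter peaks in both lines. Of 24 secretory granule and synaptic vesicle genes, SYN2 and UNC13A overlapped a window, with a promoter peak in both lines. These are 3.23% and 8.33% of their lists, beside the 1.74% of all genes. Any overlap of the gene body counts, which bears on long genes. Of the 327 genes 26.0% were over 100 kb, against 18.3% of all, although the median length was 26474 bp against 27701 bp. The TSS of SYN2 lay outside its window, so by TSS 1 of the 24 genes was in a window. None of the 19 androgen-regulated and luminal genes overlapped a window. Homeobox genes outside the HOX clusters gave 9 of 109, among them SIX3, MEIS1, MSX2 and NKX3-2. The window of MEIS1, a partner of HOX proteins, had 6 C4-2BER-only and 1 C4-2B-only peaks, with 12 to 31 reads. Clustered protocadherins gave 5 of 53, PCDHB11 to PCDHB15, all in the same window. They are close copies of each other, and the counts there are uncertain.

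The lists are compared by share in the plot of gene lists. At the other end, 4 of 549 zinc finger genes and 0 of 390 olfactory receptor, 0 of 55 keratin, 0 of 55 cytochrome P450 and 0 of 23 cadherin genes overlapped a window. The list of voltage-gated ion channel genes gave 5 of 124, namely KCNN4, KCNA7, CACNG6, CACNG7 and CACNG8. The list is wider than its name, since KCNN4 is calcium-activated. CACNG6, CACNG7 and CACNG8 lay in the same window, and KCNN4 and CACNG8 had a promoter peak in C4-2B only. Neurotransmitter receptors gave 2 of 90, axon guidance genes 3 of 68, collagens and laminins 3 of 54, WNT pathway genes 2 of 37 and housekeeping genes 1 of 14. Genes of a list that lie side by side share windows, so the 14 HOX genes stand for 2 windows and the 5 protocadherins for 1, while the 9 other homeobox genes lay in 8 windows. These shares were not tested against the 1.74% of all genes.

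**Figure D3:**
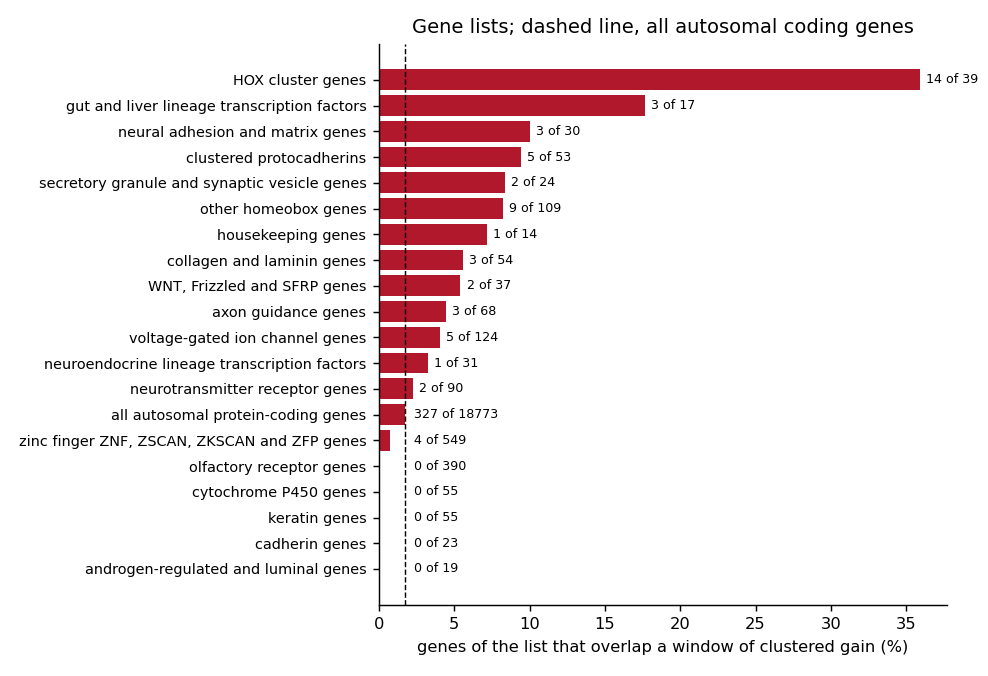
Share of the genes of each list that overlap a window of clustered gain, in percent, with the counts beside the bars and the value for all autosomal coding genes (1.74%) as a dashed line. The HOX cluster genes stand highest with 14 of 39, all in 2 windows.

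Peaks found in both lines were not counted by the rule, but they come from the same 2 lists that chose the windows. Their ratio is therefore a description and no separate check. The 851 shared peaks of the windows had a median depth-scaled read ratio of C4-2BER over C4-2B of 1.04 (quartiles 0.760 and 1.36), against 0.886 for all 91583 shared peaks and 0.814 for the 14945 in windows of clustered loss. In the windows, 67 (7.87%) were at least 2-fold higher in C4-2BER and 76 (8.93%) at least 2-fold lower. Over all shared peaks these shares were 2.54% and 15.4%. Most shared peaks of the windows were within 2-fold. At promoters the median was 1.22 in the windows and 1.07 among all shared peaks, and away from promoters 0.950 and 0.816. The local background of the shared peaks had a median ratio of 1.15 in the windows, 1.00 over all shared peaks and 0.911 in windows of clustered loss. With each peak divided by its local background, a scaling added after the data had been seen, the median ratio was 0.853 in the windows, 0.907 over all shared peaks and 0.930 in windows of clustered loss. The order of the 3 sets was therefore opposite under the 2 scalings, and the shared peaks of the windows were not higher relative to their background. Line-only peaks close to a shared peak can count in its local background, so the choice of windows bears on the second scaling. Whether a higher background or more copies of the DNA had a part in the opposite order was not tested.

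**Figure D4:**
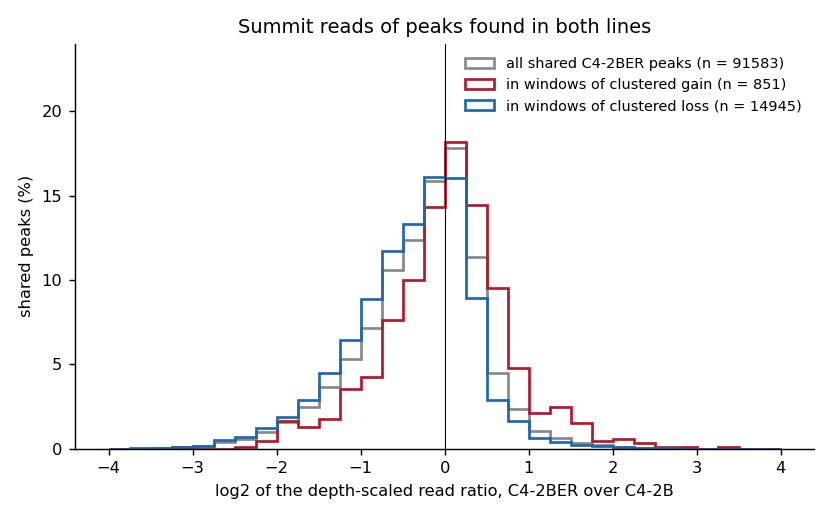
Distribution of the log2 depth-scaled read ratio, C4-2BER over C4-2B, of shared peaks, as a percentage of each set: all shared peaks (grey), those in windows of clustered gain (red) and those in windows of clustered loss (blue). The red curve lies to the right of the others, with a median ratio of 1.04 against 0.886 for all, an order that turns round when each peak is divided by its local background (0.853 against 0.907).

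The surroundings of the windows were compared with all windows. In all windows with a peak, the mean of C4-2BER-only minus C4-2B-only peaks was −1.20, and 17.4% of windows had more C4-2BER-only peaks. In the windows 100 kb from a window of clustered gain the mean was −0.194, and 37.6% had more C4-2BER-only peaks. Without neighbours that were themselves windows of gain the mean was −0.499. At 200 kb it was −0.614 with them and at 300 kb −0.824. Further out the mean went up and down without settling, with −0.676 at 800 kb, −0.995 at 900 kb, −0.725 at 1600 kb and −0.962 at 2000 kb. It was thus highest in the adjoining windows and above the mean of all windows at every distance measured.

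**Figure D5:**
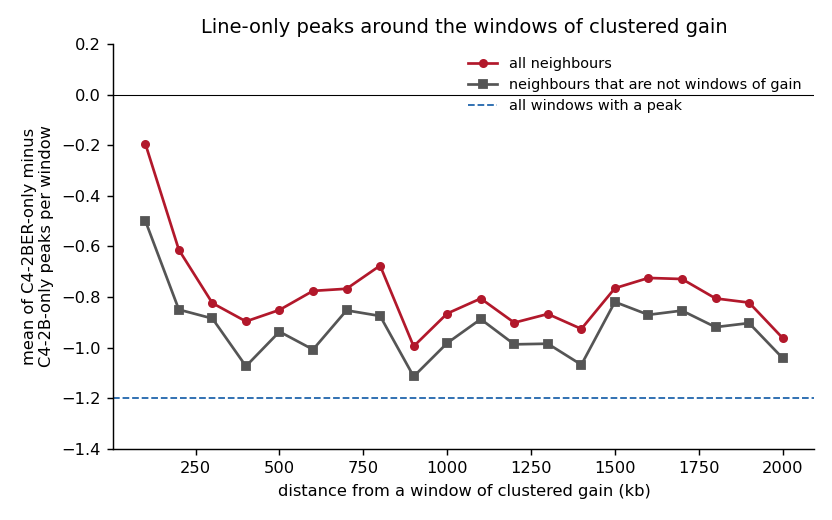
Mean of C4-2BER-only minus C4-2B-only peaks per 100 kb window against the distance from a window of clustered gain in kb, for all neighbours (red circles) and for neighbours that are not such windows (grey squares); the dashed line is the mean of all windows with a peak. The mean is −0.194 at 100 kb and lies between −0.995 and −0.614 further out, against −1.20 for all windows.

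Windows of gain also lay next to each other. There were 15 runs of windows that touched or stood 1 window apart, and they held 33 of the 209. The longest, with 4 windows, covered chr13:66800001-67300000 over PCDH9, a protocadherin of the nervous system. These windows had 6, 5, 7 and 5 C4-2BER-only peaks and 0, 0, 1 and 0 C4-2B-only peaks. The strongest, in an intron of PCDH9, held 81 reads with a −log10 q of 64.2. DACH1 had the next run, with 3 windows. FAT3 and ABCC9 reached into 2 windows each.

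Both long runs lie in the stretch from 66 to 74 Mb of chromosome 13, which was chosen for description after its values were seen. It held 12 of the 209 windows. There were 139 C4-2BER-only and 35 C4-2B-only peaks in it, while the part of the chromosome before it had 407 and 1014 and the part after it 351 and 598. The shared peaks had a median ratio of 1.14 in the stretch, with a background ratio of 1.05, and 0.807 before it and 0.832 after it. In a stretch of chromosome 19 chosen likewise, from 42 to 50 Mb, there were 11 windows, 194 C4-2BER-only and 151 C4-2B-only peaks, a median ratio of 1.28 and a background ratio of 1.45. Its windows include those of LYPD5, CGB2 and BCAT2. The part of chromosome 19 before it had 495 C4-2BER-only and 864 C4-2B-only peaks and the part after it 105 and 142. Their shared peaks had median ratios of 1.06 and 1.09, so these parts also stood above the 0.886 of all shared peaks. DNA copy number was not measured, and its part in these values was not tested.

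Across the 209 windows, the shared peaks within 2 Mb on either side had a median ratio of 0.933, against 0.872 around all windows with a peak. For 58 of the 209 (27.8%) it exceeded the 90th percentile of all windows, 1.01. In 27 windows these surroundings held more C4-2BER-only than C4-2B-only peaks and in 182 they did not. Without those 27, an alternative added after the data had been seen, 944 C4-2BER-only peaks and a median shared ratio of 1.03 by depth-scaled reads were left.

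The sequence under the new peaks was much like that of the new peaks elsewhere. Motifs were sought within 100 bp of the summit. The HOX-PBX consensus was in 4.21% of the 1092 peaks (3.17 to 5.57), in 3.28% of the C4-2BER-only peaks elsewhere (3.06 to 3.52) and in 2.55% of all C4-2BER peaks. The forkhead consensus TGTTTAC was in 5.86%, 6.10% and 7.47%, and the CTCF motif in 2.75%, 2.94% and 5.03%. The E-boxes CAGCTG and CAGGTG were in 14.2% and 16.2%, against 13.4% and 16.6% elsewhere. AP-1 (8.79%), AP-2 (GCCNNNGGC, 10.3%), SOX (ACAAAG, 15.3%) and the octamer (ATGCAAAT, 1.28%) were each within 1 percentage point of their share in the other new peaks. The GATA consensus AGATAA was in 8.52% of the new peaks and in 19.3% of the 135 C4-2B-only peaks of the same windows (13.5 to 26.7), and forkhead in 14.8% (9.80 to 21.8) of the latter. GATA was in 9.62% of the C4-2BER-only peaks elsewhere and in 9.83% of all C4-2BER peaks. Of the 14 motifs searched, only GATA and forkhead had counting intervals that did not overlap between the line-only peaks of these windows. For the C4-2BER-only peaks the intervals were 7.0 to 10.3 (GATA) and 4.62 to 7.41 (forkhead). No share of C4-2B-only peaks elsewhere is given here, so whether this holds only in these windows was not tested.

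The windows depended on the threshold. When both lists were limited to peaks with a −log10 q of at least 5, 54 of the 209 windows were kept, and at 10 or more, 10 were. With as many C4-2B peaks as C4-2BER peaks, taken from the top by −log10 p, 676 windows passed. That setting only drops C4-2B peaks, so the 209 windows were kept among them by construction.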

How the data were processed

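ATAC-seq was carried out in 2 libraries each of C4-2B and C4-2BER. According to the methods, the authors aligned paired-end reads to hg38 with Bowtie2, kept a mapping quality of 10 or more, removed duplicates with Picard, merged the replicates and called peaks with macs2 (shift 100, extension 200 bp; its version is not given in the sources used here). The submitters' processing notes also name FastQC and bedtools 2.17. The authors deposited 1 peak list per line. The deposited fold is a ratio of summit reads to local background with 1 added to each, the deposited −log10 p and −log10 q are those of macs2, the deposited score, which macs2 makes from the q-value, was not used, and the remaining deposited columns give positions.

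Whole reads and background per 200 bp were recovered from fold and −log10 p, a step tested on simulated data. The lowest background gave the depth ratio, by which shared-peak reads were divided. Rows with the same interval were counted once. Overlap by 1 bp or more made a peak shared. GENCODE release 44 supplied protein-coding genes and TSSs. Any peak that reached within 2000 bp of a TSS of a gene counted as its promoter peak. The summit decided whether a peak was called promoter, exon, intron or outside coding genes, in that order. The windows, gene lists and motifs were chosen with earlier results of these data known. Windows were ordered by difference, then C4-2BER-only count, then reads, and the first 12 are described singly, beside genes of the 19 lists, genes with a promoter peak in C4-2BER only and runs of windows. Intervals of shares are Wilson 95% and cover counting error only, and the interval of the median read ratio is binomial. With 1 list per line, no SD, test or p-value could be had. Python 3.11.15, pandas 2.3.3, scipy 1.17.1 and pysam 0.24.0 were used. The authors' lists also hold chromosomes X and Y, which the window rule leaves out. A few items that the naming rule covers are not reported here.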

Additional observations from a re-analysis of the deposited data

Results flagged for a closer look

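The windows above cover chromosomes 1 to 22. On the X chromosome, which the rule leaves out, 14 windows of 100 kb had a difference of 4 or more. Their share of all X windows was not computed, so they are not set beside the 0.727% of chromosomes 1 to 22. The window chrX:131700001-131800000, with no coding gene, had 9 C4-2BER-only and 0 C4-2B-only peaks. The window of EFNB1, an ephrin ligand, had 4 and 0, and that of GPC3, a cell-surface glypican, had 5 and 1. Nothing in these values gives the expression of the genes, and no replicate check was possible.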

How the results depend on the processing

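No paired analysis was possible because each line has a single merged peak list, and for the same reason no library could be left out. The main values were 209 windows, 1092 C4-2BER-only peaks, 327 genes and a median shared read ratio of 1.04. The 95% binomial interval of that ratio was 1.02 to 1.08. It treats neighbouring peaks of 1 pair of lists as independent, so it measures no spread between cultures. In the order of the main values, the results were 75, 382, 147 and 1.14 when both lists were cut at a −log10 q of 5. Cut at 10, they were 21, 99, 93 and 1.20, and with equal numbers of top peaks 676, 3450, 1202 and 0.988. That last setting drops the lowest C4-2B peaks, so more C4-2BER peaks have no partner, and the median ratio crossed 1. They were 581, 2447, 886 and 1.04 for a difference of 3 or more and 75, 472, 126 and 1.10 for 5 or more, where by construction the rule itself changes. Calling peaks up to 500 bp apart shared left 165 windows, 823 peaks and 231 genes with a ratio of 1.02, and 154 of the 209 windows were kept. Dividing each shared peak by its local background, added after the data had been seen, gave a median ratio of 0.853, which is below 1. With a 50% reciprocal overlap 203 were kept among 241. Windows that started 50 kb further along also gave 209, with 1088 peaks and 376 genes. Scaling C4-2B to the depth of C4-2BER removed few C4-2B peaks (149503 were left) and moved none of the 4 values. That setting too only drops C4-2B peaks, so the 209 windows were kept by construction. The lowest listed summit had 8 (C4-2B) or 7 (C4-2BER) reads, so a C4-2BER-only peak is a site not listed in C4-2B, and weaker accessibility there was not detectable.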
